A study of Mus musculus with 14 samples.

Results

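The 9 genes described here encode secreted proteins with which natural killer (NK) cells, and the related type 1 innate lymphoid cells (ILC1s), act on other cells. They are Ifng, the chemokine genes Ccl3, Ccl4, Ccl5 and Xcl1, the growth factor genes Csf1, Csf2 and Il2, and Tgfb1. The members were named by symbol and matched to Ensembl identifiers of the count table. All 9 were found among its 46078 genes, and all 9 were among the 26990 genes kept after the filter on low counts.

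Libraries came from the bone marrow of C57BL/6 mice aged 8 weeks, with 2000 cells sorted per sample. Immature NK cells (iNK) were gated as NK1.1+ DX5+ CD27+ and lacking CD3, CD11b and IL-7Ra, and immature ILC1s (iILC1) as NK1.1+ CD49a+ IL-7Ra+ and lacking CD3. Control mice had the genotype Il-15-flox/KO and the conditional knockouts (cKO) had Vav-Cre;Il-15-flox/KO, so that every mouse of the study carried a knockout allele of Il15 beside a floxed one, and no group had 2 intact alleles. The Vav promoter drives Cre in blood-forming cells and their progeny, and the state of the floxed allele in other marrow cells was not checked here. For each cell type there were 3 control and 4 cKO libraries. Levels are TMM-normalised CPM, which scale the reads of a gene to the size of its library. Fold changes, standard errors (SE) and p-values come from edgeR's quasi-likelihood test, and p-values were adjusted by Benjamini-Hochberg across the 26990 genes tested. A gene is said to be called, or higher or lower without further values, where its adjusted p is under 0.05.

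Interferon gamma is the signature cytokine of NK cells and ILC1s. It acts through the receptor encoded by Ifngr1 and Ifngr2, and it raises guanylate binding proteins, immunity-related GTPases and antigen presentation in the cells that receive it. CCL3, CCL4 and CCL5 draw leukocytes such as T cells and monocytes, whereas XCL1 draws cross-presenting dendritic cells that carry XCR1. CSF1 sustains macrophages, GM-CSF (encoded by Csf2) acts on myeloid cells, IL-2 is chiefly a T cell growth factor that shares the receptor subunits IL-2Rb and common gamma with IL-15, and TGF-b1 restrains NK cells and is secreted in a latent form.

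Promoters of the 3 genes that passed the test in at least 1 comparison are shown because these genes moved in different directions. They are the 250 bases before the annotated start in RefSeq, on GRCm38.p6, written 5' to 3' on the strand of the gene, with matched motifs in capitals. The Ifng window is chr10:118440796-118441045 (plus strand), the Ccl3 window chr11:83649379-83649628 (minus strand) and the Xcl1 window chr1:164935523-164935772 (minus strand).
Ifng: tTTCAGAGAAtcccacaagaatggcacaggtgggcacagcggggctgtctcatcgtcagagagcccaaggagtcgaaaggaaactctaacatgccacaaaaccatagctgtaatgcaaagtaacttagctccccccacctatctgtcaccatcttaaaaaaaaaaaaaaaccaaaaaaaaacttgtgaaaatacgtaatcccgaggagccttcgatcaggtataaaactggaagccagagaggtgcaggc
Ccl3: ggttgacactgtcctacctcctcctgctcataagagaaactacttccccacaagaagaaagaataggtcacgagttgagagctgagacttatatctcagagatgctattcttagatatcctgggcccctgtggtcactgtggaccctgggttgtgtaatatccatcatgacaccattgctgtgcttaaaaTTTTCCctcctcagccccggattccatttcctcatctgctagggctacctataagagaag
Xcl1: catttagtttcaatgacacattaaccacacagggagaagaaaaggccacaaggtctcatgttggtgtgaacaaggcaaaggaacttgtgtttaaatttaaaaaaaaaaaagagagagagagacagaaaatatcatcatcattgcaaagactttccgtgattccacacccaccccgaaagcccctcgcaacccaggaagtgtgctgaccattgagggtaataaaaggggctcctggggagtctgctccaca
Patterns of 5 factor families were searched on both strands in the 7 members that the RefSeq table holds, which are all but Ccl4 and Ccl5. The interferon gamma activated site pattern (GAS), TTCNNNGAA, was found in 1 member window, at -249 to -241 of Ifng, and in 7.02% of all 32851 promoter windows. The NFAT core, GGAAAA, was found in Ccl3 (-60 to -55, minus strand of the gene) and at 2 places in Il2 (-137 to -132 and -48 to -43), and in 20.4% of all windows. The NF-kB pattern, a 10-base consensus with ambiguous letters, was found in Csf1 (-154 to -145) and in 3.9% of all windows. The AP-1 pattern TGANTCA (6.75% of all windows) and the T-box core AGGTGT (11.8%) matched no member window, and the Xcl1 window held none of the patterns. The Csf2 window (chr11:54249900-54250149, minus strand) did not reach the start of the counted gene at 54249667. The bases directly before that start were therefore not searched. A match describes letters only.

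Library depth ran from 3512796 to 12572326 total counts, and the control iILC1 libraries were the shallowest (3512796 to 4933284). Il15, the targeted gene, was listed at 8.16 to 11.1 CPM in control iNK, 8.58 to 12.3 CPM in cKO iNK, 11.7 to 13.8 CPM in control iILC1 and 11.2 to 24.9 CPM in cKO iILC1. These values sum over all exons and check neither the deletion nor the labels. The 9 ILC1 markers (such as Il7r, Itga1 and Cxcr6) summed to 104.5 to 139.6 CPM in iNK libraries of both genotypes and to 1293 to 3885 CPM in iILC1 libraries, and all 9 were higher in iILC1 in both genotypes (Il7r and Itga1 encode proteins of the sort gate). Cd3e, whose protein was gated out, lay at 1.11 to 6.79 CPM in iNK and at 22.0 to 79.3 CPM in iILC1, and Itgam, which encodes the CD11b that was gated out of iNK, lay at 53.7 to 165.4 CPM in iNK. The 12 B cell markers summed to 59.4 to 76.3 CPM in control iNK, 226.7 to 327.5 CPM in cKO iNK and 61.4 to 114.0 CPM in iILC1. Of the marker lists of other cells, no gene was at 0 in all libraries of a group. Background was measured by 1318 olfactory and vomeronasal receptor genes that lymphocytes should not use, which summed to 1358 to 2988 CPM per library and were lowest in control iNK replicate 1 (1358 CPM) and cKO iILC1 replicate 1 (1539 CPM).

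**Figure D1:**
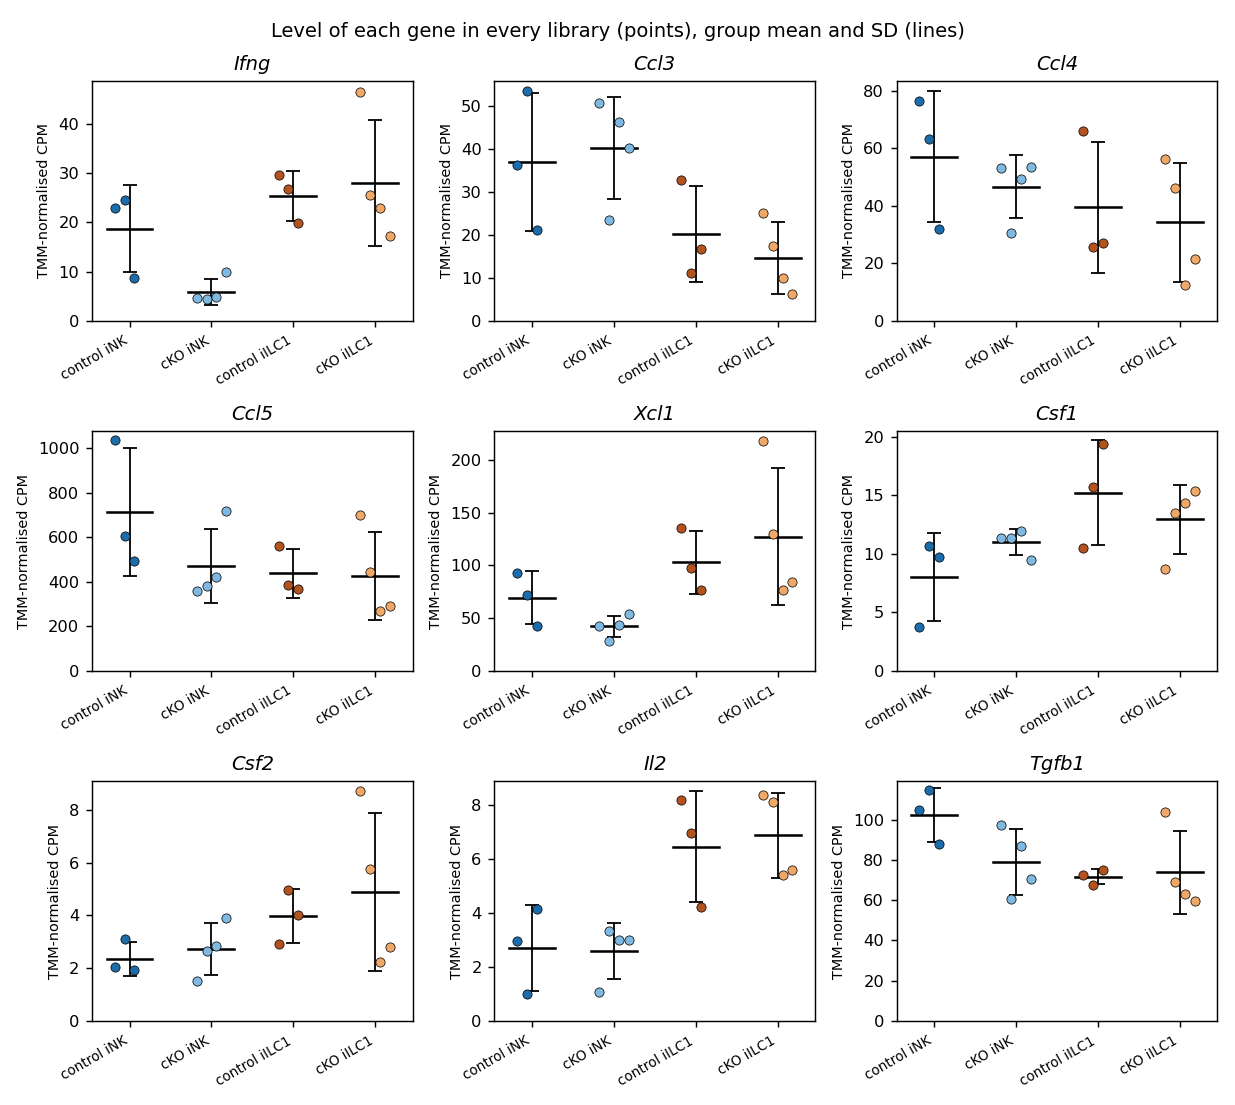
CPM of each gene (vertical axis, from 0) in every library, by group (horizontal axis), with the group mean and SD as lines. Ifng was at 4.44 to 9.88 CPM in cKO iNK and at 17.3 CPM or more in all 7 iILC1 libraries, and the Ccl5 panel reaches 1037 CPM.

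Interferon gamma had the largest fold changes of the 9 genes, both by genotype in iNK and between the cKO cell types. Ifng (ENSMUSG00000055170, mm10 chromosome 10, 118441047 to 118445892, plus strand, 4 exon blocks) was at 23.0, 24.6 and 8.64 CPM in control iNK replicates 1, 2 and 3. In cKO iNK replicates 1 to 4 it was at 4.59, 4.44, 4.81 and 9.88 CPM. It was at 29.5, 26.8 and 19.8 CPM in control iILC1 and at 46.5, 25.5, 22.9 and 17.3 CPM in cKO iILC1. Of the 4 cKO iNK libraries, 3 lay below every other library of the study, while the fourth lay above the lowest control iNK library, so that the iNK groups overlapped. In cKO the libraries of the 2 cell types did not overlap.

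Ifng was lower in cKO than in control iNK, at 0.324 times the control level (log2 fold change -1.63, SE 0.354, 95% interval -2.35 to -0.90, adjusted p = 0.0284). It was the 1 member called in this comparison, in which 0.408% of all genes tested were called and 0.252% were called lower. An unadjusted p under 0.05 was reached by 2 members (Ifng and Xcl1), against 7.87% of all genes. The libraries of no member were fully apart by genotype, where 8.84% of all genes were in iNK and 5.48% in iILC1. Leaving out 1 of the 7 iNK libraries at a time ended the call in 5 cases, with adjusted p from 0.104 to 0.243. Without control iNK replicate 3 the log2 fold change was -1.96 (adjusted p = 0.00419), and without cKO iNK replicate 4 it was -1.97 (adjusted p = 0.00986). The B cell markers were higher in cKO than in control iNK for 6 of 12 genes, and their part in the lower Ifng level was not tested. In bulk libraries, fewer Ifng-expressing cells and less Ifng RNA per cell cannot be told apart.

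Per kilobase of exon, Ifng averaged 4.91 ± 2.19 CPM (SD, n = 4) in cKO iNK, 1.11 times the 95th percentile of the silent receptor genes in the same group (4.43 CPM per kilobase). In the other 3 groups it stood 4.34 to 4.85 times above that percentile. In cKO iNK the mean level thus lay above 96.4% of the silent receptor genes, whose median there was 0.766 CPM per kilobase. Replicates 1, 2 and 3 of cKO iNK, at 3.80, 3.68 and 3.98 CPM per kilobase, lay below the 95th percentile. Only replicate 4, at 8.185 CPM per kilobase, lay above it.

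In iILC1, cKO and control did not differ past the threshold for Ifng (log2 fold change 0.15, SE 0.342, 95% interval -0.55 to 0.85, adjusted p = 0.984). Its sign turned to -0.21 when background was added as a covariate and without both libraries of least background. None of the 9 genes was called by genotype in iILC1, where 0.0482% of all genes tested were called. With edgeR's quasi-likelihood test 0 members reached an unadjusted p under 0.05 there, against 4.52% of all genes. The DESeq2 fit also called 0 members in that comparison.

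The difference between the genotype effects in the cell types was 1.78 for Ifng on the log2 scale (SE 0.495, 95% interval 0.77 to 2.79). Its unadjusted p of 0.00123 became 0.431 after adjustment over all genes, with edgeR's quasi-likelihood test. No member was called for this interaction by edgeR or by DESeq2, against 0.0778% of all genes in edgeR, and 2 members (Ifng and Xcl1) had an unadjusted p under 0.05, against 7.06% of all genes. Ifng was called under 1 of 21 alternatives, that without a filter on low counts (1.803, adjusted p = 0.0332), and its adjusted p ranged up to 1 in the others.

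Between cell types, Ifng was 4.63 times as high in cKO iILC1 as in cKO iNK (log2 fold change 2.21, SE 0.335, 95% interval 1.53 to 2.90, adjusted p = 4.27e-05). This call held in all 22 alternatives, with log2 fold changes of 1.84 to 2.59. Of the 9 members 3 were called between the cKO cell types, against 3.42% of all genes tested. Ifng and Xcl1 were higher, against 1.74% of genes, and Ccl3 was lower, against 1.68%, and 4 members had an unadjusted p under 0.05, against 9.97%. In control mice the iILC1 against iNK difference of Ifng was 0.43 (SE 0.369, adjusted p = 0.5). No member was called there by edgeR or by DESeq2, against 3.91% of all genes in edgeR, and 5 members had an unadjusted p under 0.05, against 20.8%. With background as a covariate the control difference was 1.38 (adjusted p = 0.0119). Background ran from 1358 to 2435 CPM in control iNK and from 2126 to 2988 CPM in control iILC1, so it cannot be fully told apart from cell type. Control iNK replicate 3, the control iNK library with the least Ifng, also had the most background of its group (2435 CPM).

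**Figure D2:**
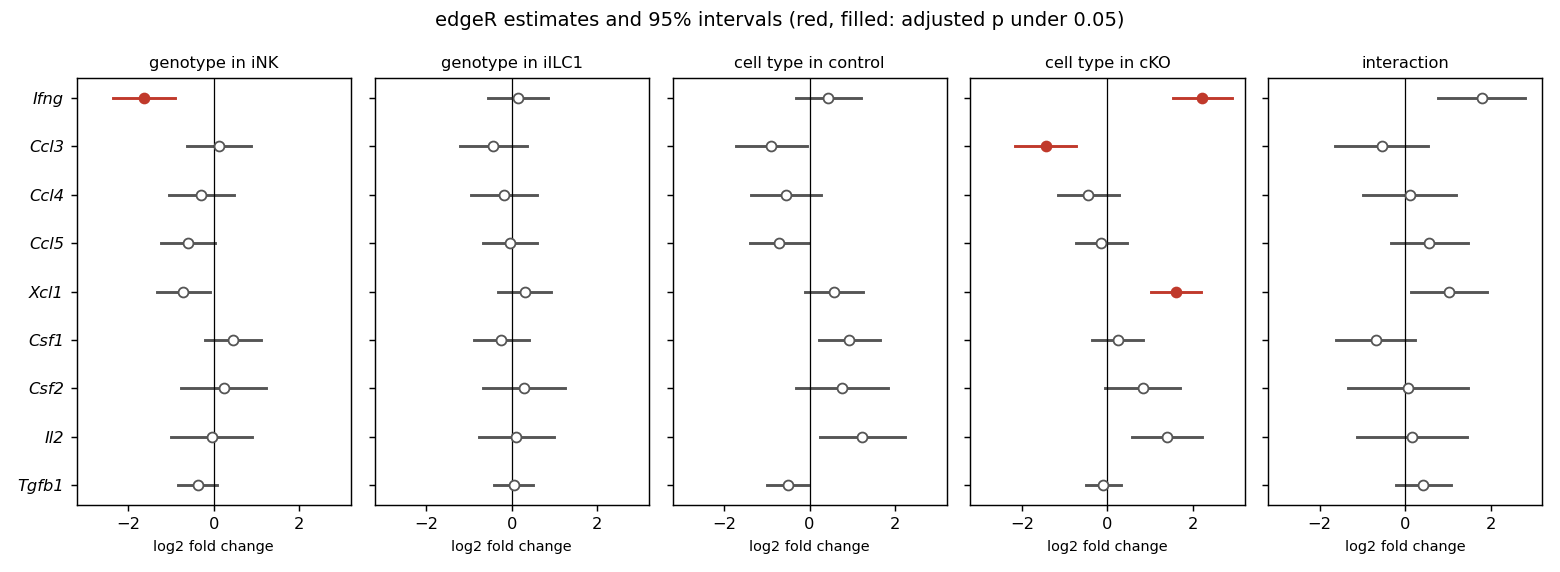
Log2 fold changes (horizontal axis) with 95% intervals for the 9 genes in the 5 comparisons; filled red points passed an adjusted p of 0.05. Red points appear for Ifng by genotype in iNK (-1.63) and for Ifng, Xcl1 and Ccl3 between the cKO cell types (2.21, 1.59 and -1.45).

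Among the chemokines, Xcl1 was the 1 gene that was both called and free of overlap between the cKO cell types. It encodes lymphotactin, the ligand of XCR1 (ENSMUSG00000026573, mm10 chromosome 1, 164931644 to 164935527, minus strand, 3 exon blocks). It was at 92.6, 72.2 and 42.9 CPM in control iNK and at 42.7, 28.6, 43.4 and 53.8 CPM in cKO iNK. It was at 135.1, 97.6 and 76.4 CPM in control iILC1 and at 217.7, 129.9, 76.8 and 83.9 CPM in cKO iILC1. Every cKO iILC1 library lay above every cKO iNK library, while the control cell types overlapped.

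Xcl1 was 3.01 times as high in cKO iILC1 as in cKO iNK (log2 fold change 1.59, SE 0.286, 95% interval 1.00 to 2.18, adjusted p = 0.0005), and the call held in all 22 alternatives. In control mice the same difference was 0.57 (SE 0.325, adjusted p = 0.312), and 1.43 (adjusted p = 8.98e-05) with background as a covariate, which partly follows cell type there. By genotype in iNK it was -0.71 (SE 0.302, 95% interval -1.33 to -0.09), with an unadjusted p of 0.0255 and an adjusted p of 0.535. The interaction was 1.02 (unadjusted p = 0.0245, adjusted p = 0.705). Of the exon bases of Xcl1, 98 are shared with the predicted gene Gm20743 on the opposite strand, and without strand information reads there cannot be assigned to either.

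Ccl3, which encodes MIP-1 alpha, had the opposite order of cell types (ENSMUSG00000000982, mm10 chromosome 11, 83647844 to 83649355, minus strand, 3 exon blocks). It was at 36.2, 53.5 and 21.3 CPM in control iNK and at 50.8, 23.6, 46.4 and 40.4 CPM in cKO iNK. It was at 32.8, 11.1 and 16.7 CPM in control iILC1 and at 25.1, 17.5, 9.86 and 6.36 CPM in cKO iILC1. Of the 4 cKO iNK libraries, 3 lay above all cKO iILC1 libraries, and replicate 2 of cKO iNK fell just below the highest of them.

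Ccl3 was lower in cKO iILC1 than in cKO iNK, at 0.367 times its level (log2 fold change -1.45, SE 0.347, 95% interval -2.16 to -0.74, adjusted p = 0.0118). The call ended without cKO iNK replicate 1 (adjusted p = 0.0528), without cKO iILC1 replicate 3 (adjusted p = 0.0509) and in DESeq2 (adjusted p = 0.0596). Between the control cell types it was -0.90 (SE 0.405, unadjusted p = 0.035, adjusted p = 0.207). By genotype it was 0.12 in iNK (95% interval -0.62 to 0.87, adjusted p = 0.96) and -0.43 in iILC1 (95% interval -1.21 to 0.36, adjusted p = 0.979). Markers of neutrophils, which also express Ccl3, summed to 28.1 to 446.8 CPM in cKO iNK and to 45.4 to 324.8 CPM in cKO iILC1, ranges that overlap. The summed markers of monocytes and macrophages, another source of Ccl3, did not overlap and had the order of Ccl3. The 14 of them, none at 0, summed to 1086 to 1531 CPM in cKO iNK and 517.9 to 937.9 CPM in cKO iILC1, and to 1061 to 1908 CPM and 571.0 to 838.5 CPM in the control cell types. Gene by gene, 5 of the 14 were higher and 1 (Ccr2, log2 fold change -1.41, adjusted p = 0.000426) was lower in cKO iILC1, with a median of 0.91, so that the median and the sum differed in direction. The part of either list in the result was not tested.

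Ccl4 encodes MIP-1 beta and lies 13.2 kb from Ccl3 on chromosome 11 (ENSMUSG00000018930, mm10, 83662584 to 83664683, plus strand, 3 exon blocks). It was at 76.4, 63.0 and 31.8 CPM in control iNK, at 53.1, 30.5, 49.4 and 53.6 CPM in cKO iNK, at 65.8, 25.6 and 26.9 CPM in control iILC1, and at 56.3, 46.3, 12.57 and 21.5 CPM in cKO iILC1. All 4 groups overlapped. Its log2 fold change between the cKO cell types was -0.44 (95% interval -1.15 to 0.26, adjusted p = 0.855), and no comparison called it under any alternative. In control iNK the library with the least background had the most Ccl4, and so it was in control iILC1 and cKO iILC1. In cKO iNK the library with the least background, replicate 1 (53.1 CPM), came just below replicate 4 (53.6 CPM).

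Ccl5, which encodes RANTES and whose RNA is abundant in resting NK cells and memory T cells, was the most abundant of the 9 genes (ENSMUSG00000035042, mm10 chromosome 11, 83525778 to 83530518, minus strand, 3 exon blocks). It was at 1037, 606.8 and 493.1 CPM in control iNK and at 361.1, 379.9, 423.6 and 718.0 CPM in cKO iNK. It was at 563.0, 385.6 and 366.2 CPM in control iILC1 and at 698.5, 446.5, 270.1 and 293.6 CPM in cKO iILC1. Its highest library of all was control iNK replicate 1, the library with the least background, and the groups overlapped. By genotype in iNK the log2 fold change was -0.60 (SE 0.309, 95% interval -1.23 to 0.04, adjusted p = 0.664). Between the control cell types it was -0.70 (unadjusted p = 0.0454, adjusted p = 0.231), and 0.05 with background as a covariate, which partly follows cell type there.

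**Figure D3:**
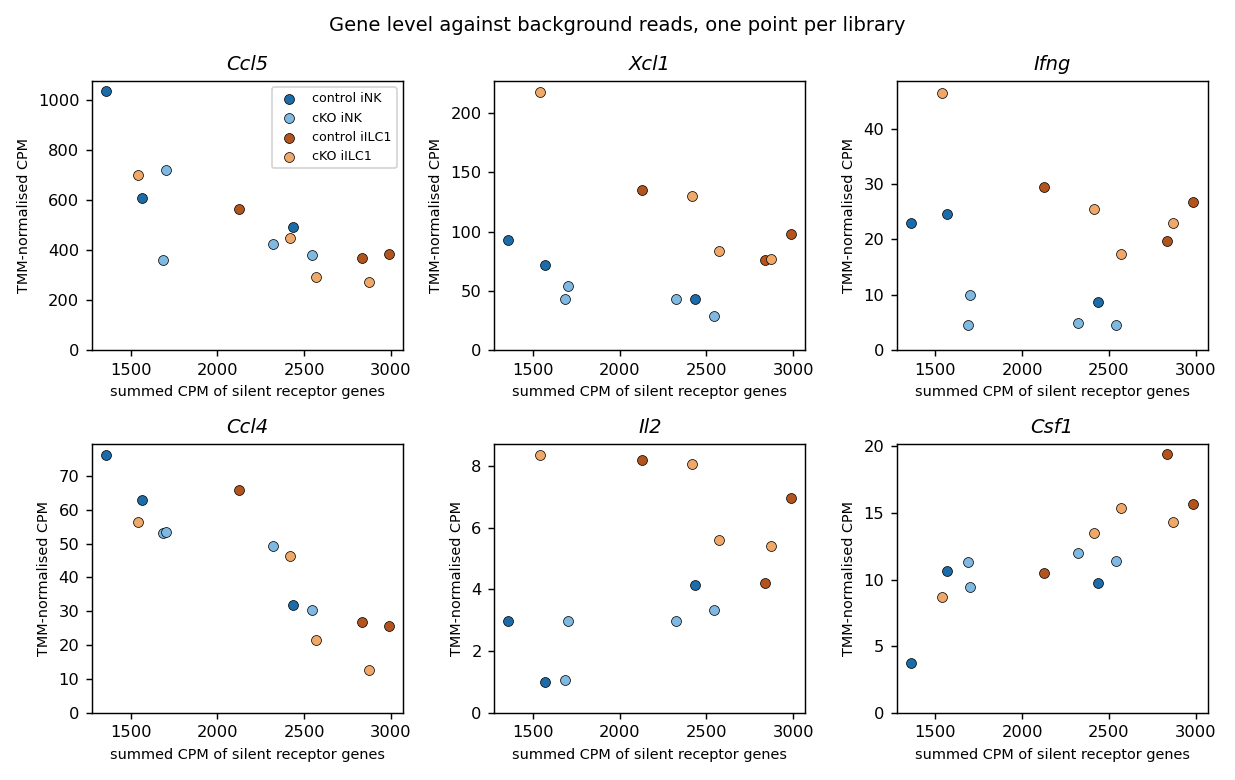
CPM of 6 of the genes (vertical axis, from 0) against the summed CPM of silent receptor genes (horizontal axis), 1 point per library, coloured by group. Control iNK replicate 1, at 1358 CPM of background, has 1037 CPM of Ccl5 and 3.75 CPM of Csf1.

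Ratios between the genes of 1 library do not depend on the total to which they are scaled. Of the summed CPM per kilobase of the 9 genes, Xcl1 made up 11.4 to 13.7% in control iNK and 9.7 to 12.5% in cKO iNK. It made up 22.5 to 26.4% in control iILC1 and 28.5 to 30.6% in cKO iILC1. The 7 iILC1 libraries thus lay above the 7 iNK libraries in the share of Xcl1, with no overlap, although the CPM of Xcl1 overlapped between control cell types. The share of Ifng was 0.564 to 0.795% in cKO iNK, 0.992 to 2.02% in control iNK, 2.33 to 3.15% in control iILC1 and 2.42 to 3.69% in cKO iILC1. For Ifng, too, the iNK genotypes and the cell types did not overlap in this share, whereas Ccl5 made up 57.8 to 72.7% in iNK and 53.4 to 58.8% in iILC1. These shares were computed after the values had been seen, carry no test, and show unequal change among the 9 genes, not which gene changed.

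The growth factor genes were low. Il2, whose product shares receptor subunits with IL-15 (ENSMUSG00000027720, mm10 chromosome 3, 37120523 to 37125959, minus strand, 4 exon blocks), was at 2.97, 0.982 and 4.16 CPM in control iNK and at 1.07, 3.33, 2.99 and 2.98 CPM in cKO iNK. It was at 8.19, 6.96 and 4.21 CPM in control iILC1 and at 8.36, 8.08, 5.41 and 5.59 CPM in cKO iILC1, which are 23 to 69 counts per library. All 7 iILC1 libraries lay above all 7 iNK libraries, although the nearest pair, at 4.16 and 4.21 CPM, nearly met.

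The log2 fold change of Il2 between cell types was 1.39 in cKO (SE 0.403, 95% interval 0.56 to 2.21, adjusted p = 0.0523) and 1.23 in control (SE 0.483, unadjusted p = 0.0164, adjusted p = 0.148). Neither passed the threshold, and the cKO difference passed it under 8 of 22 alternatives (adjusted p from 0.0138 to 0.205). Groups did not overlap for 3 members in cKO (Ifng, Xcl1 and Il2), against 6.61% of all genes, and for 2 in control (Il2 higher and Tgfb1 lower in iILC1), against 25% of all genes. Per kilobase, Il2 lay at 2.27 to 2.36 CPM in iNK and 5.64 to 6.00 CPM in iILC1 on average, at the 79.8th to 97.5th percentile of the silent receptor genes. T cells are the chief source of IL-2, and 3 of 12 T and NKT cell markers (Cd3e, Trbc2 and Bcl11b) were higher in cKO iILC1 than in cKO iNK, as were 6 of 12 between the control cell types. The summed T and NKT markers were 1200 to 1680 CPM in cKO iNK and 1084 to 2089 CPM in cKO iILC1, and their part in Il2, Ifng and Xcl1 was not tested.

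Csf1, the macrophage growth factor gene (ENSMUSG00000014599, mm10 chromosome 3, 107741048 to 107760469, minus strand, 12 exon blocks), was at 3.75, 10.6 and 9.76 CPM in control iNK and at 11.3, 11.4, 12.0 and 9.45 CPM in cKO iNK. It was at 10.5, 15.7 and 19.4 CPM in control iILC1 and at 8.72, 13.5, 14.3 and 15.4 CPM in cKO iILC1. In each cell type its lowest library was the one with the least background, the reverse of Ccl5. Per kilobase it averaged 1.52 to 2.88 CPM per group, below the 95th percentile of silent genes in all 4 groups (0.431 to 0.595 times). Its log2 fold change between control cell types was 0.93 (SE 0.347, unadjusted p = 0.0121, adjusted p = 0.128).

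Csf2, which encodes GM-CSF (ENSMUSG00000018916, mm10 chromosome 11, 54247271 to 54249667, minus strand, 4 exon blocks), was at 2.03, 3.11 and 1.92 CPM in control iNK and at 1.53, 2.63, 2.86 and 3.92 CPM in cKO iNK. It was at 2.92, 4.97 and 4.03 CPM in control iILC1 and at 8.72, 5.75, 2.23 and 2.80 CPM in cKO iILC1, from 10 to 72 counts per library over all 14. No comparison called it, and between the cKO cell types its log2 fold change was 0.82 (95% interval -0.05 to 1.69, adjusted p = 0.565). Per kilobase it lay at 0.772 to 1.27 times the 95th percentile of silent genes, and 96 of its exon bases overlap Gm12223 on the opposite strand. For Csf1 in all 4 groups and for Csf2 and Il2 in both iNK groups (Il2 at 0.668 and 0.512 times that percentile), the mean level lay below the 95th percentile of silent genes. In iILC1 the means of Csf2 and Il2 lay between the 95.3rd and 97.5th percentile. They were thus below the 99th percentile of silent genes (8.22 CPM per kilobase in control and 7.54 in cKO).

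**Figure D4:**
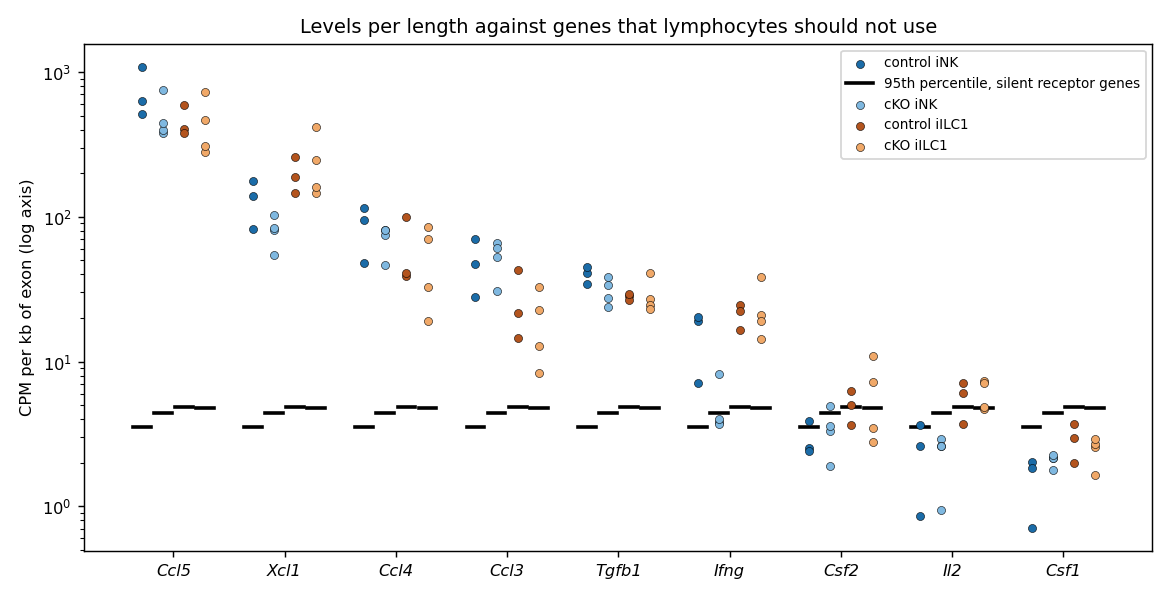
CPM per kilobase of exon (vertical log axis) of the 9 genes in every library, with black bars at the 95th percentile of 1318 silent receptor genes in each group. Ccl5, Xcl1, Ccl4, Tgfb1 and Ccl3 lie above the bars in every library, Ifng in cKO iNK lies on both sides of its bar, and Csf1 lies below them in every library.

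Tgfb1, which encodes the cytokine that holds NK cells in check, had group means from 71.6 to 102.4 CPM (ENSMUSG00000002603, mm10 chromosome 7, 25687002 to 25705077, plus strand, 7 exon blocks). It was at 104.5, 114.6 and 88.0 CPM in control iNK and at 97.4, 60.6, 86.8 and 70.5 CPM in cKO iNK. It was at 72.2, 67.6 and 75.1 CPM in control iILC1 and at 103.9, 68.8, 63.1 and 59.4 CPM in cKO iILC1. All 3 control iNK libraries lay above all 3 control iILC1 libraries, a log2 fold change of -0.51 (SE 0.237, unadjusted p = 0.0382, adjusted p = 0.215), and the other groups overlapped. By genotype it was -0.38 in iNK (95% interval -0.82 to 0.07, adjusted p = 0.701) and 0.04 in iILC1 (95% interval -0.41 to 0.50, adjusted p = 0.992).

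Per kilobase of exon, the order of the 9 mean levels in control iNK was Ccl5 (742.1 CPM per kilobase), Xcl1 (132.4), Ccl4 (86.5), Ccl3 (48.3), Tgfb1 (40.0), Ifng (15.5), Csf2 (2.94), Il2 (2.36) and Csf1 (1.52). Neighbours from Xcl1 to Tgfb1 overlapped in that order, and so did those from Csf2 to Csf1. In cKO iILC1 the order was Ccl5 (445.0), Xcl1 (243.0), Ccl4 (51.8), Tgfb1 (28.9), Ifng (23.2), Ccl3 (19.2), Csf2 (6.09), Il2 (6.00) and Csf1 (2.46). There Ccl5 overlapped with Xcl1, and so did neighbours from Ccl4 to Il2. The median log2 fold change of the 9 genes was -0.29 by genotype in iNK (0.06 over all genes), 0.04 by genotype in iILC1 (0.01), 0.43 between control cell types (0.16) and 0.23 between cKO cell types (0.01).

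**Figure D5:**
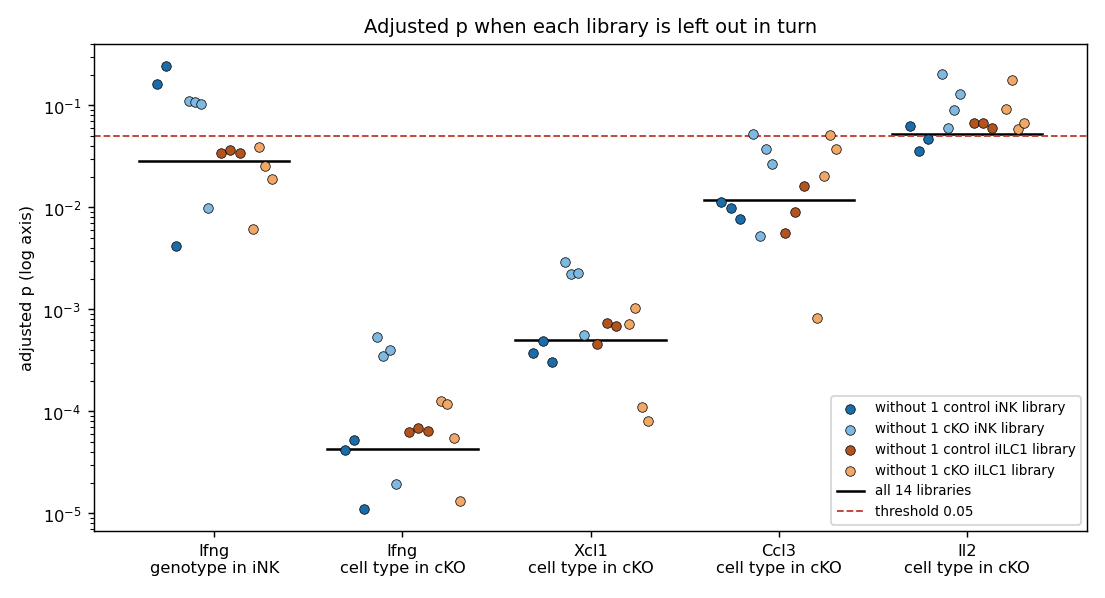
Adjusted p (vertical log axis) of 5 results with all 14 libraries (black bars) and with each library left out (points, coloured by the group of the library), against the threshold of 0.05 (dashed). The Ifng and Xcl1 differences between cKO cell types stay under it, and the Ifng genotype difference in iNK crosses it in 5 cases.

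Of 27 genes that respond to interferon gamma, all tested, 12 were higher and 1 lower in cKO iILC1 than in cKO iNK, and the rest were not called, with a median log2 fold change of 0.62 against 0.01 over all genes. Over all genes tested, 1.74% were called higher and 1.68% lower between the cKO cell types. Between control cell types 3 of the 27 were higher and 1 lower, against 3.91% of all genes called in either direction. Tgtp1, an interferon-inducible GTPase gene, was at 6.13 to 10.1 CPM in cKO iNK and 64.9 to 94.96 CPM in cKO iILC1 (log2 fold change 3.41, SE 0.236, adjusted p = 3.08e-11). Gbp6, a guanylate binding protein gene, was at 2.496 to 5.07 and 31.6 to 53.0 CPM (3.38, SE 0.27, adjusted p = 4.23e-10). Igtp, also an immunity-related GTPase gene, was at 38.0 to 62.9 and 139.8 to 223.0 CPM (1.74, SE 0.206, adjusted p = 7.12e-07), and Iigp1 differed by 2.18 (SE 0.299, adjusted p = 8.73e-06). For these 4 genes no library of cKO iNK reached a library of cKO iILC1. Per kilobase of exon, Tgtp1, Gbp6 and Iigp1 averaged 2.335, 0.604 and 1.74 CPM in cKO iNK. These means lay below the 95th percentile of silent receptor genes there (4.43), and that of Igtp (26.3) lay above it. The 3 response genes higher between control cell types were Tgtp1 (log2 fold change 2.78, adjusted p = 9.04e-08), Gbp6 (1.805, adjusted p = 0.000334) and Iigp1 (1.59, adjusted p = 0.00657). Ifng itself was not called there. Tgtp1 and related GTPases have near-identical copies, so reads could be split among them.

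Irf8, a transcription factor gene that is also a marker of dendritic cells, was the 1 lower response gene in both cell type comparisons. In control mice it was at 224.9 to 380.3 CPM in iNK and 97.2 to 131.0 CPM in iILC1 (log2 fold change -1.34, SE 0.259, adjusted p = 0.002). No response gene was called by genotype with the main edgeR fit, against 0.408% of all genes in iNK and 0.0482% in iILC1. In that fit 10 in iNK and 4 in iILC1 had an unadjusted p under 0.05, against 7.87% and 4.52% of all genes. DESeq2 called 3 lower in iNK and 0 in iILC1. Other edgeR settings also called response genes lower in iNK, 3 with the 5 CPM filter, 3 with background as a covariate, 2 without cKO iILC1 replicate 1, and 1 each with DESeq2 size factors, no filter, the replicate block, only the groups compared, without cKO iNK replicate 4 and without cKO iILC1 replicate 3. In iNK 23 of the 27 estimates were negative, with a median of -0.31 (0.06 over all genes). Among them B2m, the light chain of MHC class I, was at 1436 to 2307 CPM in control iNK and 880.3 to 1493 CPM in cKO iNK (log2 fold change -0.70, SE 0.284, adjusted p = 0.504), and Irf1 differed by -0.04 (adjusted p = 0.98). Leaving out 1 library at a time, 9 to 12 response genes were higher in cKO iILC1, and 9 without both libraries of least background. With background as a covariate the number was 18, and between control cell types it reached 9.

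Of 40 other secreted factors, 34 were tested. In cKO iILC1, 4 were higher than in cKO iNK and none lower, against 1.74% and 1.68% of all genes. Tnf, the gene of the inflammatory cytokine TNF, was at 1.96 to 4.59 CPM in cKO iNK and 10.4 to 20.9 CPM in cKO iILC1 (log2 fold change 2.48, SE 0.334, adjusted p = 6.97e-06). Ltb, for lymphotoxin beta, was at 228.8 to 337.3 and 444.4 to 1014 CPM (1.24, SE 0.273, adjusted p = 0.00505), Lta, for lymphotoxin alpha, at 2.47 to 8.41 and 10.2 to 25.4 CPM (1.70, adjusted p = 0.00955), and Cxcl10, itself an interferon-inducible chemokine gene, at 8.35 to 15.4 and 17.3 to 44.3 CPM (1.39, adjusted p = 0.00363). Between control cell types 3 were higher, among them Lta (2.95, SE 0.551, adjusted p = 0.00137) and Tnf (1.73, SE 0.387, adjusted p = 0.00865), and 3 lower, among them Metrnl (-1.42, SE 0.266, adjusted p = 0.00136) and Mif (-1.06, SE 0.268, adjusted p = 0.0212). Over all genes, 3.91% were called between control cell types. In cKO iNK, Tnf and Lta averaged 1.695 and 3.81 CPM per kilobase, below the 95th percentile of silent receptor genes there (4.43). Cxcl10 (4.92) and Ltb (183.8) lay above it. None of the 34 factors was called by genotype with the main edgeR fit. In that fit 6 in iNK and 3 in iILC1 had an unadjusted p under 0.05, against 7.87% and 4.52% of all genes. DESeq2 called 1 higher and 1 lower in iNK. With edgeR 2 were higher in cKO iNK with background as a covariate, and 1 each with no filter, the 5 CPM filter, the replicate block, without cKO iNK replicate 4 and without cKO iILC1 replicate 1. Ltb differed by 0.60 in iNK (adjusted p = 0.639) and 0.87 in iILC1 (adjusted p = 0.944).

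Receptors for the 9 products numbered 19, all tested, with 3 higher and 1 lower in iILC1 in each genotype. Over all genes, 3.42% were called between the cell types in cKO and 3.91% in control. None of the 19 receptors was called by genotype under edgeR or any of its alternatives. In the main edgeR fit 1 in iNK and 4 in iILC1 had an unadjusted p under 0.05, against 7.87% and 4.52% of all genes. Il2ra, the gene of the alpha subunit of the IL-2 receptor, was at 3.52 to 7.83 CPM in cKO iNK and 30.8 to 54.1 CPM in cKO iILC1 (log2 fold change 2.77, SE 0.282, adjusted p = 4.27e-08) and differed by 1.98 in control (SE 0.327, adjusted p = 0.000334). Eng, a TGF-b co-receptor gene, differed by 1.53 in cKO (SE 0.265, adjusted p = 0.0003) and 1.73 in control (adjusted p = 0.00134). Ccr3, also a receptor of CCL5 and low in all groups, was at 0.918 to 1.87 and 4.07 to 10.5 CPM (1.94, SE 0.458, adjusted p = 0.0103). Ifngr1, the ligand-binding chain of the interferon gamma receptor, differed by 0.05 by genotype in iNK (adjusted p = 0.977) and 0.61 in iILC1 (adjusted p = 0.979). The receptor that IL-2 and IL-15 share, Il2rb, was at 2020 to 4399 CPM in all 14 libraries and differed by -0.41 by genotype in iNK (adjusted p = 0.75). Csf1r, a receptor that marks macrophages, was called between control cell types (17.1 to 24.9 against 6.56 to 12.3 CPM, 1.10, adjusted p = 0.0394), where 3 of 14 monocyte and macrophage markers, Csf1r among them, were higher and 1 lower. Per kilobase, the means of Csf1r (1.95 to 4.20 CPM) and Ccr3 (0.36 to 1.75 CPM) lay below the 95th percentile of silent receptor genes in all 4 groups. In both iNK groups Il2ra (1.09 and 1.25 CPM) and Eng (1.59 and 2.35 CPM) did too. Ifngr1 and Il2rb lay above it in every group.

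Of 27 genes known to drive or restrain Ifng, none was called by genotype in either cell type with the main edgeR fit or DESeq2. In that edgeR fit 2 in iNK and 4 in iILC1 had an unadjusted p under 0.05, against 7.87% and 4.52% of all genes. In iNK 1 was higher in cKO with the 5 CPM filter, with background as a covariate and without cKO iILC1 replicate 1. Between cKO cell types 3 were higher and 2 lower, and between control cell types 1 was higher and 3 lower. Over all genes, 3.42% and 3.91% were called in these comparisons. Eomes, a T-box factor gene that defines NK cells, was at 582.4 to 932.3 CPM in cKO iNK and 74.0 to 113.8 CPM in cKO iILC1 (log2 fold change -3.09, SE 0.244, adjusted p = 3.58e-10). In control mice Eomes differed by -2.47 (SE 0.275, adjusted p = 8.7e-07). Prdm1, the gene of the repressor Blimp-1, was also lower in iILC1 (-0.92 in cKO, adjusted p = 0.00567, and -1.44 in control, adjusted p = 0.000447). Il12rb1, a subunit of the IL-12 receptor through which dendritic cells induce Ifng, was higher in cKO iILC1 (0.92, SE 0.202, adjusted p = 0.00505), as was Ikzf2 in both genotypes (0.95 and 1.19, adjusted p = 0.00388 and 0.00316). Zfp36, the gene of an RNA-decay factor that shortens cytokine messages, was lower in control iILC1 (-0.995, SE 0.273, adjusted p = 0.0355). By genotype in iNK, Ets1 differed by -0.13 and Il18rap by -0.20 (adjusted p = 0.932 and 0.885).

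Of 23 genes of TGF-b activation and signalling, 1 was higher and 1 lower in iILC1 in each genotype. Over all genes, 3.42% were called between the cell types in cKO and 3.91% in control. None of the 23 was called by genotype with edgeR or DESeq2, but for 1 higher in iNK with no filter on low counts. In the main edgeR fit 3 in iNK and 1 in iILC1 had an unadjusted p under 0.05, against 7.87% and 4.52% of all genes. Nrros, which tethers latent TGF-b1 to the surface of myeloid cells, was at 152.4 to 247.0 CPM in cKO iNK and 66.2 to 93.3 CPM in cKO iILC1 (-1.32, SE 0.201, adjusted p = 4.38e-05). Ltbp3, a latent TGF-b binding protein gene, was at 5.62 to 11.1 and 22.1 to 48.9 CPM (2.13, SE 0.273, adjusted p = 3.17e-06). In control the differences were -1.29 for Nrros (adjusted p = 0.000931) and 1.09 for Ltbp3 (adjusted p = 0.0433). Ltbp3 averaged 1.43 CPM per kilobase in cKO iNK and 2.30 in control iNK. Both lay below the 95th percentile of silent receptor genes (4.43 and 3.54), whereas Nrros (49.6 and 57.6) lay above it. Smad3 and Tgfbr2, the most abundant of the list, differed by -0.15 and -0.10 by genotype in iNK (adjusted p = 0.915 and 0.949).

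Across the 14 libraries, the genes most like each member in log2 CPM were found among 11078 genes with a mean of at least 10 CPM. For Ifng these were Zfp287 (Pearson's r 0.941), Trdv4 (0.929) and Tdrd3 (0.927), and for Xcl1 Fgl2 (0.957), Herc6 (0.956) and Prkd2 (0.953). Ifng and Xcl1 had an r of 0.927 with each other over the 14 libraries and 0.853 for deviations from the group means. For Ifng and Ccl3 the sign differed between these measures, at -0.336 over the libraries and 0.654 within groups. Within groups, Xcl1 had a higher r with Ccl4 (0.915) and Ccl5 (0.909) than with Ifng. Members also followed background: within groups, r with its log2 CPM was -0.807 for Ifng, -0.907 for Xcl1 and -0.772 for Ccl3. It was negative for all members but Csf1 (0.69) and Il2 (0.163). The gene most like Ccl3 was Pitpnc1 (0.949), that most like Ccl4 was Tmem251 (0.948), that most like Ccl5 was Tmsb4x (0.949), that most like Csf1 was Piwil2 (0.941) and that most like Tgfb1 was Carm1 (0.968). These values are descriptions over 14 libraries that share group, depth and background, and they were chosen as the highest of many.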

How the data were processed

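Poly(A) RNA of sorted cells was amplified with SMART-Seq v4 and tagged with Nextera XT, which mark no strand, per the labels' protocols. The deposited table holds raw read counts per Ensembl gene for 14 libraries, not normalised by the authors, per the file headers. The submitters' processing notes name the build mm10 and the tools HISAT2 2.1.0, Subread 1.6.5 with featureCounts, and Trimmomatic 0.33. Which annotation release was used, and how strand and multi-mapping reads were handled, is not given in the sources used here.

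Genes were kept with edgeR 4.0.16 (R 4.3.3) by filterByExpr (minimum count 10, minimum total 15), which left 26990 of 46078. Counts were scaled by TMM, and 1 quasi-likelihood fit held 4 group means (10 residual degrees of freedom, common biological coefficient of variation 30%). The tests are two-sided F tests. SEs were derived from the F statistics. Levels per kilobase divide CPM by the exon bases of the table. The edgeR fit was run on counts simulated from its own estimates. Changes were set in cKO iNK alone and in no gene of low level. DESeq2 and the other settings were not simulated. Of the identifiers, 97.97% matched a symbol. DESeq2 1.42.0 was an alternative.

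The 9 members and all lists were chosen with earlier results of these data known. Named beside the members were, per list and comparison, up to 4 called genes of smallest p, or the 2 most abundant where fewer than 2 were called, and up to 3 genes most like each member of at least 10 CPM. Some genes that this rule names are not reported here. Replicates differed by more than sampling noise. Separate mice are not stated in the labels for the replicates of a group, and p-values then cover the spread between libraries, which may be technical. Numbers shared by replicates were not treated as pairs, since the same-numbered libraries did not deviate together in every pair. The alternatives were other size factors, other filters, a replicate block, a background covariate, only the groups compared, DESeq2 and each library left out. Leaving out both libraries of least background was added after the data were seen.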

Additional observations from a re-analysis of the deposited data

Results flagged for a closer look

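Among the 18 groups of 4 libraries (9 genes in each cKO group), 2 held a library far from the others, where chance flags about 1 in 20 groups. Ifng was at 9.88 CPM in cKO iNK replicate 4, against 4.44 to 4.81 CPM in the other 3 libraries, and the gap took up 0.932 of the range of the group. Without that library the genotype difference of Ifng in iNK was -1.97 on the log2 scale (adjusted p = 0.00986, edgeR), against -1.63 with it. Il2 was at 1.07 CPM (7 counts) in cKO iNK replicate 1, against 2.98 to 3.33 CPM in the other 3, with a gap of 0.846 of the range. Without that library the difference of Il2 between the cKO cell types was 1.15 (adjusted p = 0.205), against 1.39 with it.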

How the results depend on the processing

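Of 45 member results (9 genes in 5 comparisons), 981 values were computed under alternatives. Direction and side of the threshold were kept in 897, 8 lost a call, 12 gained one and 64, in 19 results, changed sign. No called value changed sign. The calls lost were those of Ifng by genotype in iNK (5 single-library omissions) and of Ccl3 between cKO cell types (2 omissions and DESeq2). The cause was not tested. Counts were low for Csf1, Csf2 and Il2, at 6 to 121 per library.

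By genotype in iNK the edgeR fit called 110 genes. It called 191 with no filter on low counts, 210 with a filter of 5 CPM in 3 libraries, 175 with the replicate block, 382 with the background covariate, 220 with only the groups compared, 278 in DESeq2, and 63 to 230 with 1 library left out, with 0 to 1 members called in the latter. In iILC1 it called 13, against 47 with no filter, 30 with the 5 CPM filter, 30 with the replicate block, 50 with the covariate, 31 in DESeq2 and 4 to 22 in the omissions. Between control cell types it called 1056, against 1593 with the 5 CPM filter, 2212 with the block, 1696 with only the groups compared, 2182 in DESeq2 and 394 to 2050 in the omissions. There the block called 1 member (Csf1, adjusted p = 0.0492) and the covariate 2 (Ifng and Xcl1). Between cKO cell types it called 923, against 1659 with the covariate and 713 to 1094 in the omissions. For the interaction it called 21, against 56 with no filter (1 member, Ifng), 40 with the block, 33 with the covariate, 37 in DESeq2 and 10 to 33 in the omissions.

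The share of calls that were higher was 38.2% by genotype in iNK (25.5% in DESeq2), 46.2% in iILC1 (66.0% with no filter, 60.0% with the block), 23.3% between control cell types (44.5% with the covariate), 50.8% between cKO cell types (39.7% without both libraries of least background) and 28.6% for the interaction (15.8% without those libraries, 48.6% in DESeq2). Same-numbered libraries deviated together with correlations of -0.092 to 0.354 and did not always match their own number best, so that the replicate block is no test of pairing.

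Sign changes were in estimates that passed no threshold. With the background covariate they were, by genotype in iNK, Ccl4 0.168. In iILC1 they were Ifng -0.212, Xcl1 -0.046, Csf2 -0.004 and Tgfb1 -0.102. Between control cell types they were Ccl4 0.439 and Ccl5 0.047. For the interaction they were Ccl4 -0.708, Ccl5 -0.059 and Csf2 -0.444. Without both libraries of least background, Il2 was 0.024 by genotype in iNK. In iILC1 Ifng was -0.206, Xcl1 -0.081, Csf2 -0.146 and Tgfb1 -0.166. For the interaction Ccl4 was -0.506, Ccl5 -0.154, Csf2 -0.291 and Il2 -0.024. With the 5 CPM filter Tgfb1 was -0.051 by genotype in iILC1, and Ccl4 -0.047 and Csf2 -0.139 for the interaction. With only the groups compared Tgfb1 was -0.014 by genotype in iILC1. With the replicate block Ccl4 was -0.061 and Csf2 -0.039 for the interaction, and Ifng by genotype in iNK was -1.60 (adjusted p = 0.0175).

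Leaving out 1 library at a time, the ranges that crossed 0 were, by genotype in iNK, -0.147 to 0.502 for Ccl3 and -0.416 to 0.407 for Il2. In iILC1 they were -0.213 to 0.283 for Ifng, -0.814 to 0.093 for Ccl3, -0.535 to 0.392 for Ccl4, -0.383 to 0.194 for Ccl5, -0.088 to 0.557 for Xcl1, -0.162 to 0.521 for Csf2, -0.129 to 0.313 for Il2 and -0.171 to 0.112 for Tgfb1. Between cKO cell types they were -0.446 to 0.129 for Ccl5 and -0.264 to 0.024 for Tgfb1. For the interaction they were -0.275 to 0.672 for Ccl4, -0.434 to 0.284 for Csf2 and -0.303 to 0.502 for Il2.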
